A study of Caenorhabditis elegans with 16 samples.

Results

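Embryos of Caenorhabditis elegans from a bleached culture span a range of developmental ages, so libraries made from separate cultures can differ in the age mix they hold. This axis was followed across all 16 libraries of the series with an age score, built on 4 late and 5 early genes. The late genes encode parts of the body wall muscle contractile apparatus: unc-54 and myo-3 are myosin heavy chains, unc-15 is paramyosin and lev-11 is tropomyosin. The early genes are transcription factors switched on briefly in the young embryo: med-1, end-1 and end-3 are GATA factors of the endoderm pathway, and tbx-37 and tbx-38 are T-box factors of the anterior lineage. The score of a library was the mean log2(CPM + 1) of the late genes minus that of the early genes, where CPM is counts per M scaled with TMM factors. The 4 highest-scoring libraries were set against the 4 lowest-scoring ones, and the remaining 16871 genes that passed a filter on low counts were followed along the score in all 16.

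The samples were mixed-stage embryos of 4 genotypes: WT (strain N2), edc-3(ok1427) (strain RB1311), edc-4(qe49) (strain FD135) and the double mutant with both alleles (strain FD146). The proteins EDC-4 and EDC-3 promote decapping of mRNAs and sit in processing bodies. All genotypes were grown in parallel at 16 °C on OP50 bacteria without treatment. Each mutation was represented by a single allele and each genotype by a single strain. Each genotype had 4 independent biological replicates, numbered 2 to 5, of stranded total RNA; the labels give no embryo age for any of them.

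In the first cell cycles the embryo lives on RNA and protein loaded by the mother. Maternal messages are then cleared while the zygotic genome is activated, with a burst of short-lived regulators that assign cell fates. Cell division slows after gastrulation, and the later embryo builds muscle, nerve, gut and a first cuticle before it hatches. In whole-embryo RNA, a change in the number of cells of a type and a change in RNA per cell cannot be told apart.

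Libraries held 34.1 to 52.9 M gene counts. In the 4 highest-scoring libraries the totals were 43.8 to 46.6 M, and in the 4 lowest 35.8 to 52.9 M. Nuclear ribosomal RNA took 11.1 to 14.9% of counts in the high-scoring libraries and 13.3 to 14.4% in the low-scoring ones. Markers of the mother were near 0: the 35 major sperm protein genes summed to 0.660 to 1.70 CPM with 8 at 0 throughout, the 6 vitellogenin genes to 0.984 to 2.72 CPM, and the adult collagen col-19 was listed at 0 to 0.0293 CPM. The vitellogenin sum moved with the score, at 0.984 to 1.70 CPM in the 4 lowest-scoring libraries and 1.76 to 2.54 CPM in the 4 highest, without overlap, and vit-1 passed higher (slope 0.62, adjusted p = 6.56e-05). The sperm protein sums of the ends overlapped. Of 6 tested genes listed for sperm and the adult mother, 2, vit-1 and fer-1, passed higher and 1, msp-76, lower; these were named after their values were seen. The part of maternal RNA in the results was not tested. The hatching protease hch-1, expressed in embryos, was at 183 to 342 CPM. These marker values are library-total CPM.

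The score ran from 4.62 to 7.20, a range of 2.58 log2 units, with a median of 6.45. The double mutant's replicate 4 (4.62) and the edc-4 replicate 4 (4.80) stood far below the rest, followed by edc-3 replicate 4 (5.83) and edc-4 replicate 5 (6.06). At the other end were edc-4 replicate 2 (7.20), WT replicate 4 (7.12), edc-3 replicate 5 (6.86) and edc-3 replicate 2 (6.80). No WT library was among the 4 lowest and no double mutant library among the 4 highest. Just outside the ends lay WT replicate 3 at 6.15 and WT replicate 5 at 6.79, within 0.1 of the libraries inside. The ends were chosen by these measured scores, so what follows on them is a description without a test.

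**Figure D1:**
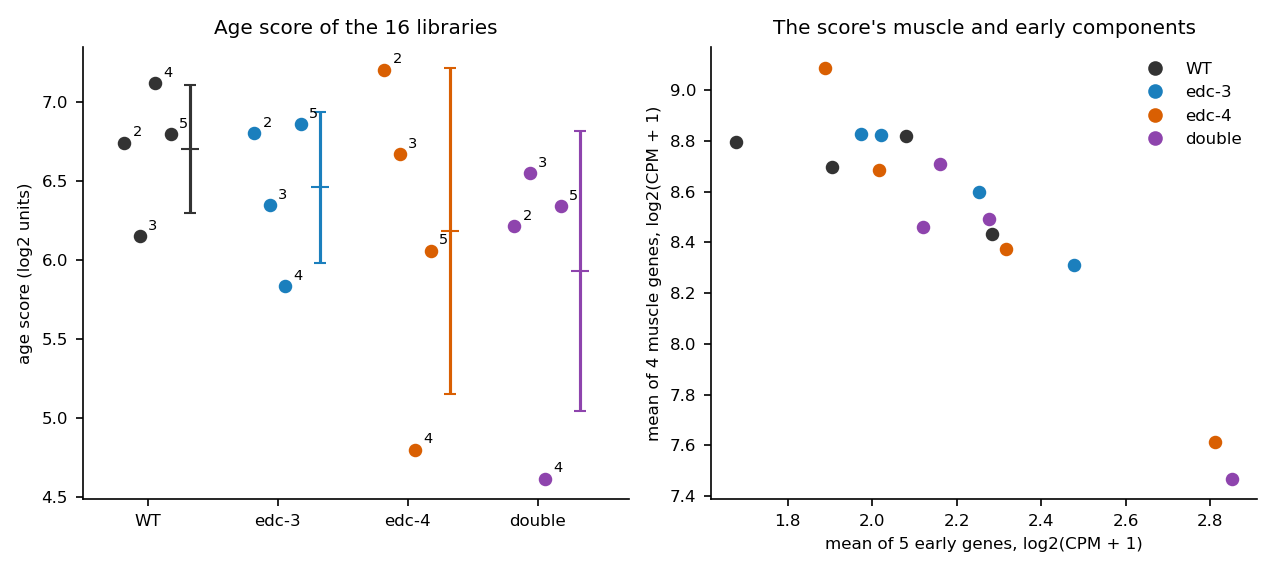
Left: the age score of each library (log2 units, points numbered by replicate) by genotype, with the mean and SD of 4 libraries beside them. Right: the mean log2(CPM + 1) of the 4 muscle genes against that of the 5 early genes. The 2 libraries at 4.62 and 4.80 lie apart at the lower right.

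The WT mean score was 6.70 ± 0.404, that of edc-3 6.46 ± 0.477, that of edc-4 6.18 ± 1.03 and that of the double mutant 5.93 ± 0.886 (SD, 4 libraries each), and the ranges of all 4 genotypes overlapped. Replicate 4 was the lowest library of each mutant and the highest of WT. The part of the replicate number in the score was not tested. The mutant libraries numbered 4 were also among the shallower ones, at 35.8, 36.5 and 36.6 M counts. The shallowest library of all, edc-3 replicate 3 with 34.1 M, had a mid-range score of 6.34. The deepest, edc-4 replicate 5 with 52.9 M, was among the 4 lowest scores. The part of depth in the score was not tested.

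Both components of the score varied. The muscle mean ran from 7.47 in the double mutant's replicate 4 to 9.09 in edc-4 replicate 2, on the log2(CPM + 1) scale. The early mean ran from 2.85 in the double mutant's replicate 4 to 1.68 in WT replicate 4. WT replicate 4 owed its rank to the early genes, since its muscle mean of 8.80 lay below those of WT replicate 2 (8.82) and edc-3 replicates 2 and 5 (8.82 and 8.83). Across the 16 libraries the components ran opposite to each other with r = -0.924, and r = -0.794 without the 2 lowest libraries. The first principal component of all genes held 36.0% of the variance and had r = 0.950 with the score over 16 libraries, or 0.925 without those 2. These correlations are descriptions over libraries that share their counting and scaling, and no p is given.

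Of the late genes, unc-54 (chromosome I, 14855901 to 14863482, WBcel235) read 286, 333, 559 and 582 CPM in the 4 lowest-scoring libraries, in rising order of score, and 811, 828, 740.4 and 990.3 CPM in the 4 highest. The mean of 842 ± 106 CPM at the high end was 1.91-fold that at the low end (SD, n = 4). The 2 lowest libraries were again apart, and the other low-scoring ones differed from the middle of the series by little. For myo-3 (V, 12226817 to 12234343) the low end read 296, 304, 570.1 and 575 CPM and the high end 773, 789, 769.6 and 856 CPM. unc-15 and lev-11 were 1.92-fold and 1.77-fold higher at the high end. Groups did not overlap for any of the 4 genes, as the choice of libraries favours.

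Of the early genes, end-1 (V, 13985128 to 13987074), a GATA factor that commits cells to gut, read 16.0, 16.8, 12.2 and 9.48 CPM at the low end and 7.97, 7.58, 5.90 and 6.88 CPM at the high end. tbx-38 (III, 11784082 to 11786061) read 12.6, 11.4, 7.88 and 6.82 CPM at the low end and 5.41, 4.76, 3.10 and 5.63 CPM at the high end. Means at the high end were 0.520 of those at the low end for end-1, 0.489 for tbx-38, 0.517 for tbx-37 and 0.502 for end-3. The scarcest, med-1, read 0.374 to 1.02 CPM at the low end and 0.122 to 0.372 CPM at the high end; it has a near-identical copy, med-2, with which reads may be shared.

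**Figure D2:**
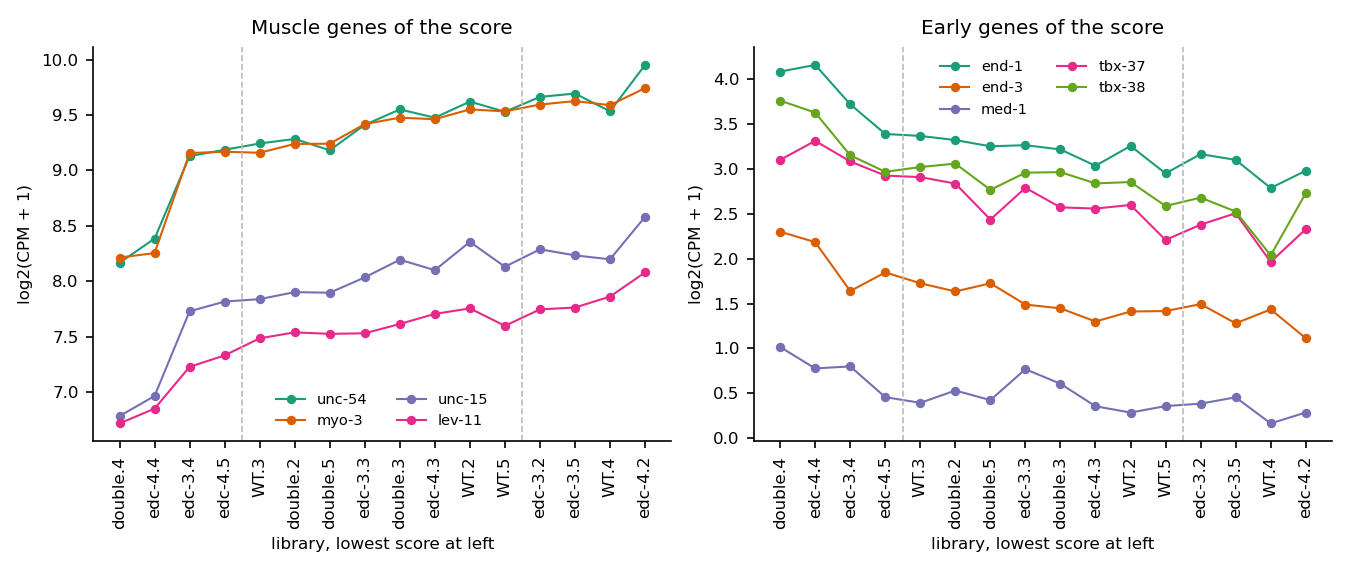
Level of each score gene, log2(CPM + 1), in every library ordered by score from left to right; dashed lines bound the 4 lowest-scoring and 4 highest-scoring libraries. The 4 muscle genes rise together and the 5 early genes fall, with the 2 libraries at the left furthest out.

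Outside the score genes, the score was fitted as a covariate beside genotype with edgeR's quasi-likelihood test, and p-values were Benjamini-Hochberg adjusted over all tested genes. A slope is the log2 change in level per unit of score. Of 16871 genes, 9219 (54.6%) had a slope past an adjusted p of 0.05, 4724 (28.0%) higher and 4495 (26.6%) lower at higher score. At an unadjusted p of 0.05 the number was 10132. The median slope of all genes was 0.05, that of the calls 0.35 among the higher and -0.27 among the lower. Slopes past 0.5 in size were found for 865 of the higher and 555 of the lower calls. Within-genotype slopes had the same sign in all 4 genotypes for 87.9% of called genes and 59.2% of all genes. The called genes were picked by their common slope over these same libraries, which favours such agreement, and the share of all genes includes them. The common biological coefficient of variation was 0.121 in the fit with the score and 0.193 with genotype alone.

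At the ends, 7583 genes (44.9%) did not overlap between the 4 highest and 4 lowest libraries, 3975 (23.6%) being higher and 3608 (21.4%) lower in the high-scoring ones. A difference of 2-fold was less common: 27 genes were at least 2-fold higher and 124 at least 2-fold lower in mean log2(CPM + 1). The axis rests in good part on few libraries. Without the double mutant's and the edc-4 strain's replicate 4, 6490 genes passed, holding 65.2% of the calls above, and without the 4 libraries numbered 4, 3427 passed, holding 36.4%. No gene called in both had changed sign.

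The genes whose levels ran closest to the score were late differentiation genes. Likeness was measured as r with the score over 16 libraries after genotype means were removed, among genes of at least 5 CPM. The closest was unc-43, the calcium/calmodulin-dependent kinase II of muscle and neurons, with r = 0.987, rho = 0.971 and r = 0.971 without the 2 lowest-scoring libraries. It read 86.0, 86.9, 112 and 118 CPM at the low end, 148, 154, 167 and 188 CPM at the high end, and 127 to 151 CPM in the 8 libraries between. The ends did not overlap, and the libraries between reached into the high end. mup-2, the troponin T of body wall muscle, followed with r = 0.987 and read 90.9 to 185 CPM at the low end and 208 to 296 CPM at the high end. Next were jip-1, a scaffold of JNK signalling (r = 0.986), jph-1, the junctophilin that ties the surface membrane to the calcium store (r = 0.985), and nrx-1, the synaptic adhesion protein neurexin (r = 0.985). These genes were picked for this pattern, so the values are a description.

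The genes that ran most opposite to the score had varied roles. cpf-1, the CstF-50 subunit of the mRNA cleavage complex, had r = -0.992, rho = -0.965 and r = -0.979 without the 2 lowest. It read 87.7, 90.4, 73.9 and 68.7 CPM at the low end and 58.1, 57.4, 56.0 and 53.04 CPM at the high end. An overlapping gene on the other strand, F28C6.5, may share reads if strand was not used in counting. pole-2, a subunit of DNA polymerase epsilon, had r = -0.991 and fell from 60.8 to 75.1 CPM at the low end to 45.0 to 50.04 CPM at the high end. Next were fbxb-75 of the F-box B family (r = -0.990), C35D10.6 (r = -0.989) and sacy-1, a DEAD-box helicase (r = -0.988).

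**Figure D3:**
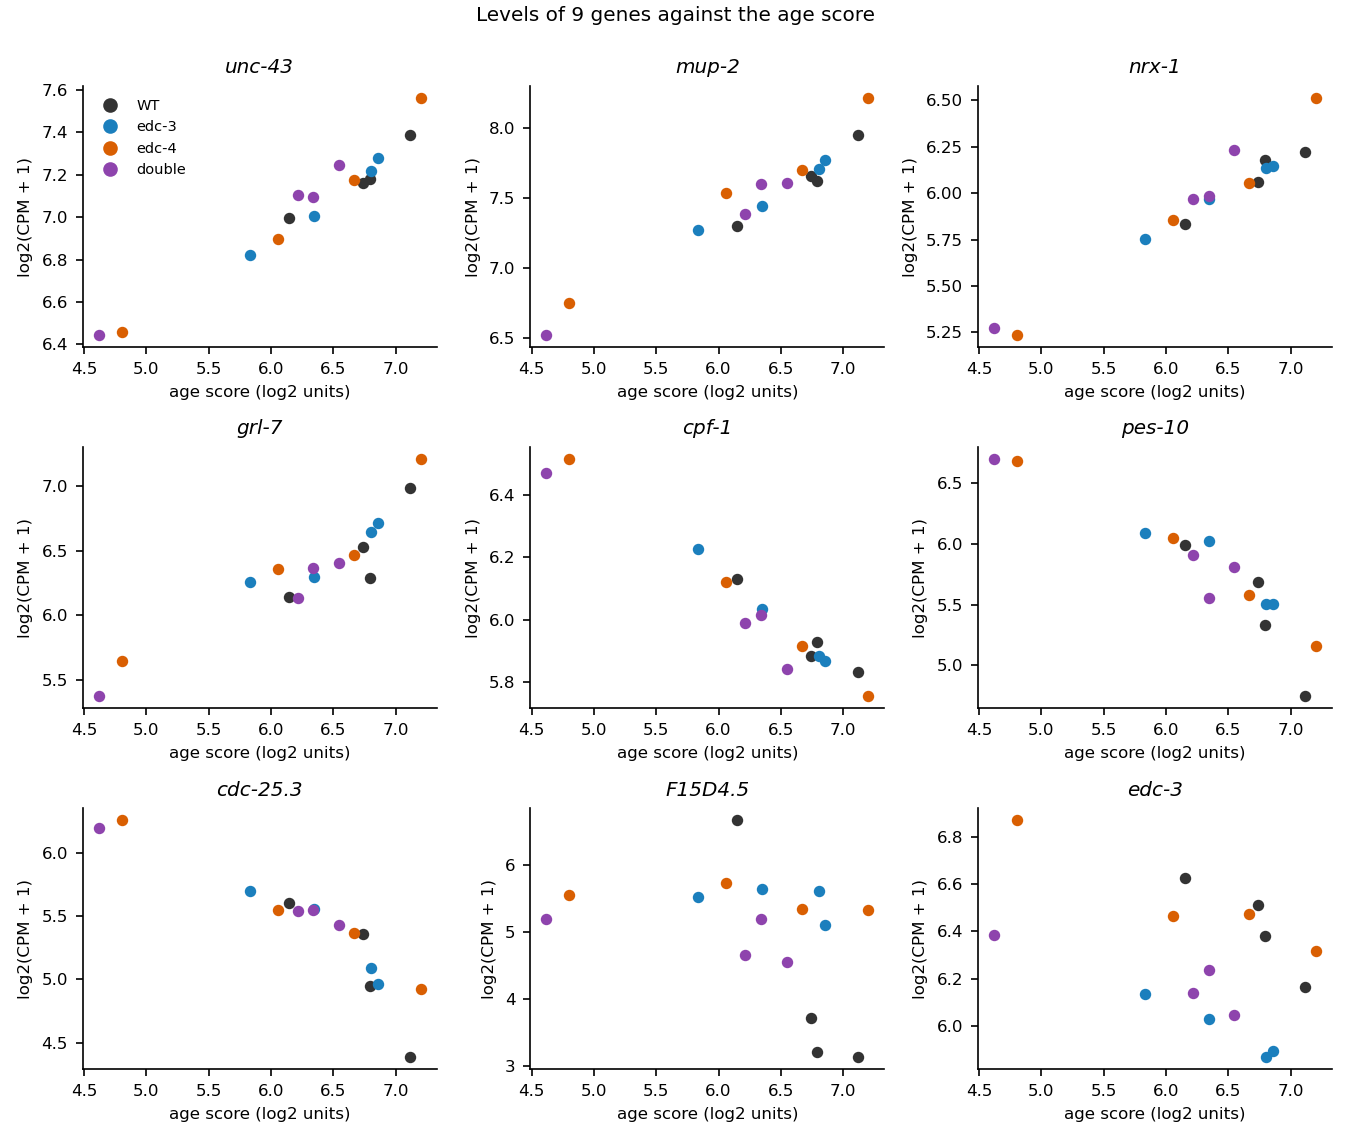
Levels, log2(CPM + 1), of 9 genes against the age score in 16 libraries, coloured by genotype. unc-43, mup-2, nrx-1 and grl-7 rise with the score and cpf-1, pes-10 and cdc-25.3 fall in each genotype; in F15D4.5 a single WT library is high, and edc-3 runs lower in the strains that carry edc-3(ok1427).

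The steepest rises among genes of at least 5 CPM with the same sign in each genotype had slopes of 0.68 to 0.73. The 12 were F30H5.3, pqn-74, appg-1, chtb-1, cpg-19, T25C12.12, ZC101.1, cla-1, T12D8.9, ZK287.4, E01G6.1 and mpz-1. F30H5.3 read 127, 143, 284 and 316 CPM at the low end and 408, 328, 415 and 515 CPM at the high end, a slope of 0.73 ± 0.0617 (SE, adjusted p = 7.09e-08). cla-1 encodes a presynaptic active zone protein, cpg-19 a chondroitin proteoglycan and mpz-1 a multi-PDZ-domain protein. T25C12.12 lies on the same strand within lin-14, so its counts may be those of lin-14. The slope of pqn-74 within WT alone was 0.00152, its sign being all that met the rule.

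The steepest falls had slopes of -0.67 to -0.74, in F56F4.8, ZC239.20, Y43D4A.6, ZC239.21, sdz-1, Y46G5A.28, EEED8.4, Y116A8C.20, ccch-2, Y57G7A.2, fbxb-46 and athp-3. F56F4.8 read 75.4, 70.5, 56.0 and 41.4 CPM at the low end and 33.5, 31.1, 15.0 and 22.5 CPM at the high end, a slope of -0.74 ± 0.0887 (SE, adjusted p = 2.25e-06). sdz-1 was named for SKN-1-dependent zygotic expression, ccch-2 encodes a CCCH zinc finger protein and fbxb-46 an F-box protein. Most of the other names carry no described role here. Several (ZC239.20 with ZC239.21, fbxb-46) belong to families of similar copies whose reads may be split.

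Tissue and stage gene lists were then read against the background of 28.0% of genes higher and 26.6% lower. Each count below is over the tested members of a list, next to its median slope, and the median over all genes was 0.05.

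Muscle genes rose. Of 56 body wall muscle genes outside the score, 48 passed higher and 1 lower (median slope 0.41), the lower being act-2, an actin (slope -0.18, adjusted p = 0.00677; chosen after its values were seen). The largest were unc-89 and ttn-1, giant sarcomere proteins, with slopes of 0.67 ± 0.0731 and 0.64 ± 0.0832 (SE). Of 33 pharynx genes, 27 rose and 0 fell (median 0.47). The pharyngeal myosins myo-1 and myo-2 had slopes of 0.75 ± 0.104 and 0.72 ± 0.108 (SE; adjusted p = 1.14e-05 and 2.35e-05), and myo-2 read 23.9, 36.6, 51.8 and 58.1 CPM at the low end and 96.3, 81.9, 62.9 and 119.7 CPM at the high end. Within WT these pharyngeal myosins went the other way, with slopes of -0.17 and -0.09, since WT replicate 2, at a score of 6.74, held 119 CPM of myo-2 and WT replicate 4, at 7.12, held 62.9 CPM. In a fit without the 2 lowest libraries, 44 muscle and 23 pharynx genes passed higher, beside 3368 of 16858 among all genes.

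Nerve genes rose in the same way. Of 59 neuron, synapse and transmitter genes, 50 passed higher and 2 lower (median 0.39), and of 42 cilia genes, 40 passed higher and 0 lower (median 0.30), the highest share of any list. Examples were egl-3, a proprotein convertase that matures neuropeptides (slope 0.57), ida-1 of dense core vesicles (0.56), and bbs-1 and che-10 of sensory cilia (0.52 each). unc-17, the vesicular acetylcholine transporter, had a slope of 0.55 but shares its locus with cha-1. The genes that fell, named after their values were seen, were tdc-1, a tyrosine decarboxylase (slope -0.30), and unc-119, a trafficking factor of neurons (-0.14). Neuropeptides and insulins had 48 of 112 higher and 3 lower (median 0.28), with ins-24, ins-35 and nlp-31 falling. Axon guidance and adhesion genes, a list added after values were seen, had 29 of 40 higher and 0 lower (median 0.23), and glia and excretory genes 14 of 24 higher and 0 lower (median 0.26). The 217 chemoreceptors tested, of 1585 named in the table, split 29 higher to 28 lower, fewer in each direction than among all genes. Without the libraries numbered 4, 13 of 40 axon guidance and adhesion genes passed higher and 0 lower, beside 1765 of 16774 higher among all genes. Their within-genotype medians were then 0.40 for WT, -0.16 for edc-3, 0.25 for edc-4 and 0.39 for the double mutant.

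The epidermis and its matrix rose. Precuticle and apical matrix genes had 19 of 22 higher and 0 lower (median 0.29), cuticle collagens 65 of 113 higher and 1 lower (median 0.37), collagen and cuticle processing genes 35 of 44 higher and 2 lower (median 0.27), and hedgehog-related and patched-related genes 52 of 74 higher and 1 lower (median 0.37). grl-7, a ground-like hedgehog-related protein, read 40.4, 49.1, 75.4 and 80.8 CPM at the low end and 98.9, 104, 126 and 147.1 CPM at the high end, a slope of 0.59 ± 0.0564 (SE, adjusted p = 2.34e-07). mlt-11 and qua-1, which act in moulting, had slopes of 0.50 and 0.50, and the collagens col-107 and col-125 of 0.65 each. The genes that fell were col-86, cutl-1, cutl-25 and grl-26, of which all but cutl-25 averaged under 1.1 CPM; they were named after their values were seen. Only 113 of 179 collagens passed the filter, so the remainder, at few or no counts, are not described by these shares. Without the libraries numbered 4, 3 of 22 precuticle genes passed higher, beside 1765 of 16774 among all genes. Collagens then had 27 of 113 higher, processing genes 15 of 44 and hedgehog-related and patched-related genes 27 of 74. The precuticle median was 0.30 in that fit, but its within-genotype median for edc-3 was -0.17, with 13 of 22 slopes negative.

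Gut genes and the factors that build tissues were mixed. Intestine differentiation genes had 23 of 42 higher and 4 lower (median 0.33), with asp-1, an aspartyl protease, at a slope of 0.62 and the intermediate filament ifc-2 at 0.55. The lower 4, glo-1, glo-3, pgp-2 and cup-5, serve gut granules and lysosomes, with slopes of -0.23 to -0.37; they were named after their values were seen. Tissue specification factors had 31 of 54 higher and 4 lower (median 0.19): unc-3 and zag-1, neuronal factors, had slopes of 0.48 each, while ceh-43, ceh-13, elt-1 and hlh-3 fell, with slopes of -0.12 to -0.25. Gastrulation and enclosure genes had 26 of 43 higher and 4 lower (median 0.18). ajm-1 of the apical junction had a slope of 0.56 and the spectraplakin vab-10 of 0.49, while the actin regulators abi-1, gex-3 and wve-1, and fem-2, fell, with slopes of -0.14 to -0.25. All 8 of these lower genes were named after their values were seen. Without the libraries numbered 4, 6 of 43 gastrulation and enclosure genes passed higher and 0 lower, beside 1765 of 16774 higher among all genes. Their within-genotype medians were then 0.37 for WT, -0.33 for edc-3, 0.07 for edc-4 and 0.32 for the double mutant. In edc-3, 35 of the 43 slopes were negative.

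**Figure D4:**
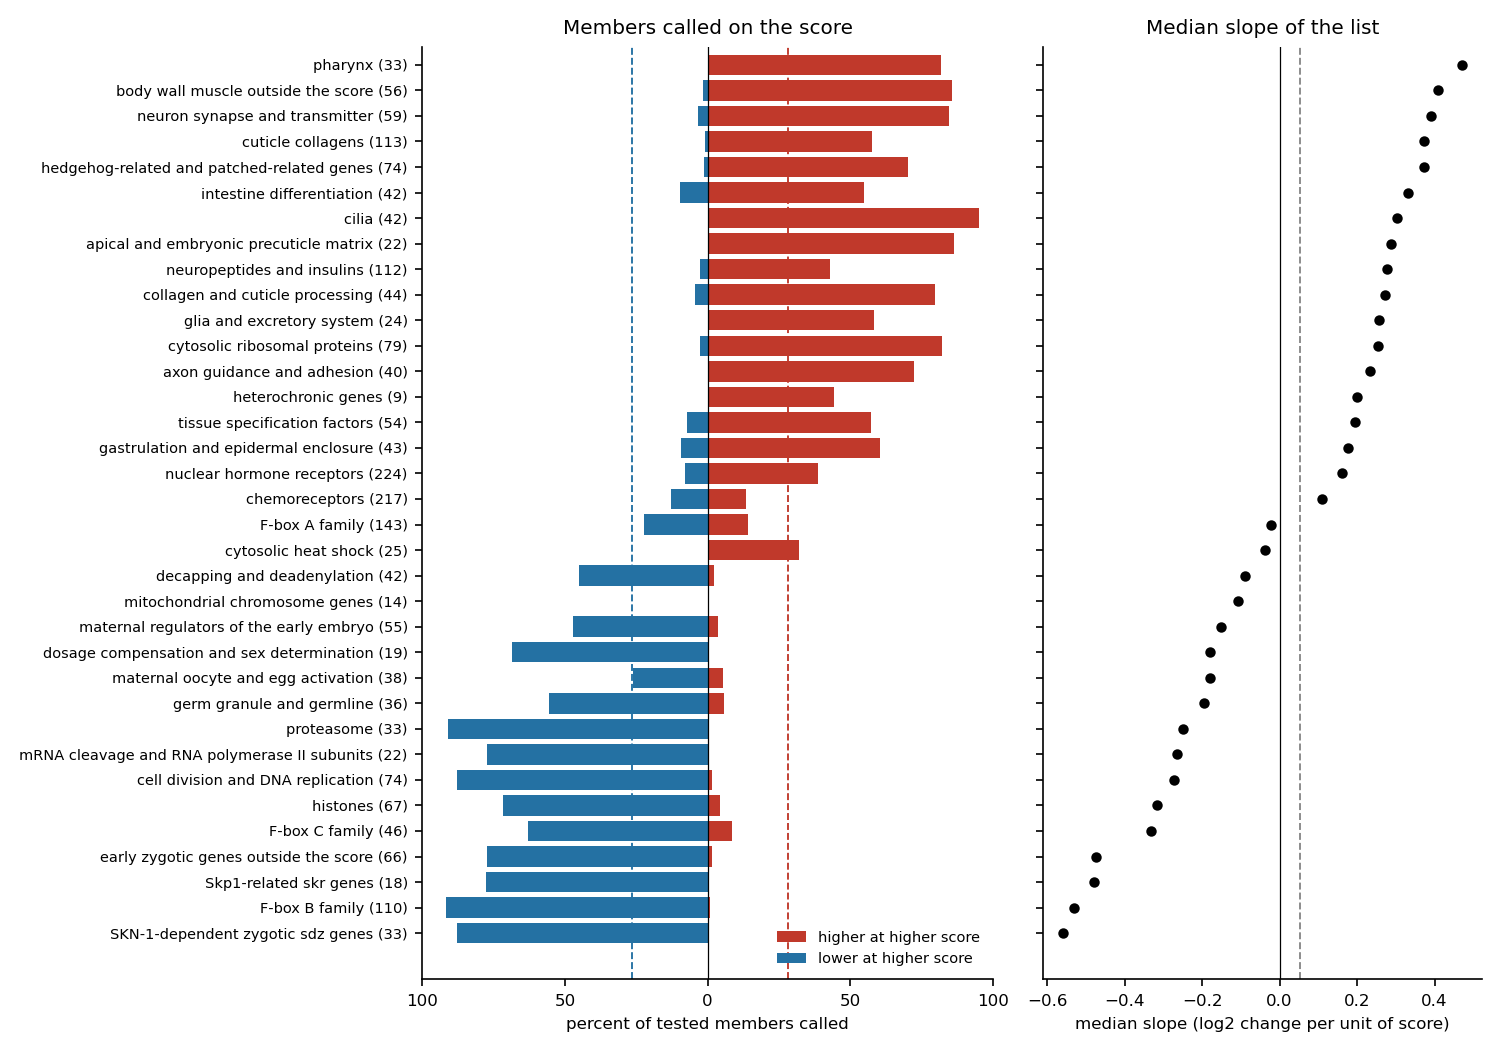
Left: percent of each list's tested members (number in parentheses) called higher (red) or lower (blue) at higher score; dashed lines mark the shares among all genes, 28.0% and 26.6%. Right: each list's median slope in log2 change per unit of score, with the median of all genes dashed. Differentiation lists lie at the top and zygotic, F-box B and division lists at the bottom.

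Early zygotic genes fell. Of 66 such genes outside the score, 51 passed lower and 1, gei-3 (slope 0.23), higher (median -0.47). pes-10, a gene transcribed briefly in young somatic cells, read 103, 102, 67.3 and 65.3 CPM at the low end and 44.5, 44.5, 25.8 and 34.6 CPM at the high end, a slope of -0.64 ± 0.0669 (SE, adjusted p = 5.17e-07). fkh-5, a forkhead factor, had a slope of -0.61 and nhr-2, an early nuclear receptor, of -0.50. Other families fell with them, and these were picked after values were seen: sdz genes, named for SKN-1-dependent zygotic expression (29 of 33 lower, 0 higher, median -0.56), the F-box B family (101 of 110 lower, 1 higher, median -0.53) and the Skp1-related skr genes (14 of 18 lower, 0 higher, median -0.48). F-box and Skp1 proteins are parts of the same ubiquitin ligase. The F-box C family had 29 of 46 lower and 4 higher (median -0.33), and the F-box A family 32 of 143 lower and 20 higher (median -0.02). skr-8 read 122 to 178 CPM at the low end and 62.9 to 90.9 CPM at the high end. Members of these families are near-identical copies in part, so a value of a single member is uncertain. In a fit without the 2 lowest libraries, 38 early zygotic, 24 sdz and 89 F-box B genes passed lower, beside 3113 of 16858 among all genes.

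Cell division, chromatin and protein turnover genes fell. Of 74 division and replication genes, 65 passed lower and 1 higher (median -0.27), the higher being klp-7, a kinesin (slope 0.30; named after its value was seen). rnr-2, the small subunit of ribonucleotide reductase, read 951, 964, 791 and 589.9 CPM at the low end and 527, 503, 352 and 384 CPM at the high end, a slope of -0.56 ± 0.0491 (SE, adjusted p = 9.17e-08). Histones had 48 of 67 lower and 3 higher (median -0.32); the 3, named after their values were seen, were hil-7, his-35 and his-71, the last encoding the replication-independent H3.3. Histone genes are multicopy, and their reads may be split. Proteasome subunits had 30 of 33 lower and 0 higher (median -0.25): pas-5 read 115, 116, 105 and 85.8 CPM at the low end and 73.8, 73.7, 55.0 and 61.6 CPM at the high end. mRNA cleavage and RNA polymerase II subunits, chosen after values were seen, had 17 of 22 lower and 0 higher (median -0.26). Cytosolic ribosomal proteins went the other way, with 65 of 79 higher and 2, rpl-11.1 and rpl-41.1, lower (median 0.25). rpl-3 had a slope of 0.51 ± 0.0735 (SE, adjusted p = 1.49e-05), although its ends overlapped, from 452 CPM at the high end to 483 CPM at the low end. Without the libraries numbered 4, 10 of 67 histones passed lower and 4 higher, and 30 of 79 ribosomal proteins higher and 0 lower. Among all genes, 1661 of 16774 then passed lower and 1765 higher. Within-genotype histone medians without those libraries were -0.03 for WT, -0.27 for edc-3, -0.29 for edc-4 and -0.04 for the double mutant. For ribosomal proteins they were 0.31, 0.01, 0.31 and 0.29 in the same order.

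Genes of sex determination and some genes of developmental timing also lay along the score. Dosage compensation and sex determination genes had 13 of 19 lower and 0 higher (median -0.18). xol-1, the early switch of sex determination, read 23.5, 19.9, 15.9 and 14.2 CPM at the low end and 10.9, 11.7, 7.10 and 7.96 CPM at the high end. Of 9 heterochronic genes, which time larval fates, 4 rose and 0 fell (median 0.20): lin-42 (slope 0.60), daf-12 (0.57), hbl-1 (0.53) and lin-14 (0.51). The list's median was 0.07 without the libraries numbered 4 and 0.03 without the 2 lowest-scoring libraries. With the replicate number as a block it was 0.01. In these fits 3, 4 and 4 of the 9 passed higher. The list's median difference in log2 level between the high and low ends was -0.02. lin-14 read 53.5, 65.0, 78.3 and 82.9 CPM at the low end and 114, 111, 119 and 164 CPM at the high end. Nuclear hormone receptors had 87 of 224 higher and 18 lower (median 0.16). Heat shock genes had 8 of 25 higher and 0 lower with a median slope of -0.04, whose sign changed with the libraries used; hsp-12.2 led at 0.48. Of the hatching genes, hch-1 rose (slope 0.33) and read 184 to 229.7 CPM at the low end and 252 to 321 CPM at the high end, lys-1 rose (0.32), and the chitinase cht-1 fell (-0.27).

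The shares of genes called are given by chromosome. Of 2609 tested X-linked genes, 40.7% passed higher and 14.6% lower. On chromosome I the shares were 22.7% and 35.4%, on II 24.4% and 31.3%, on III 23.5% and 34.7%, on IV 25.8% and 25.6%, and on V 29.5% and 21.4%. These are descriptions; genes on a chromosome are not independent, and the shares were not tested. Of 14 genes on the mitochondrial chromosome, also added later, 0 passed in either direction with edgeR (median slope -0.11), DESeq2 called 2 lower, and edgeR with the replicate number as a block called 2 higher (median 0.19), so their direction depended on the fit.

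In the fit with genotype and score, the oocyte list passed lower in about the share of all genes, and the maternal regulators in a larger share. Higher calls were few in both lists. Of 38 oocyte and egg activation genes, 10 passed lower and 2, mbk-2 and etr-1, higher (median -0.18), beside 26.6% lower among all genes. The oocyte count depended on the fit: 28 passed lower with the replicate block (median -0.52) and 15 without the 2 lowest-scoring libraries (median -0.57). Among all genes, 4495 of 16871 passed lower with the block and 3113 of 16858 without those 2 libraries. Its median was -0.31 without double mutant replicate 4 and -0.11 without WT replicate 4. Of 55 maternal regulators of the early embryo, 26 passed lower and 2, lit-1 and par-1, higher (median -0.15), against 39 lower with the block (median -0.34), and the median was -0.26 without double mutant replicate 4. Germ granule and germline genes had 20 of 36 lower and 2, ppw-2 and znfx-1, higher (median -0.20), and decapping and deadenylation genes 19 of 42 lower and 1, the Argonaute alg-1, higher (median -0.09). Without the 2 lowest-scoring libraries these medians were -0.37 for the maternal regulators, -0.47 for the germline genes and -0.21 for the decapping genes. The higher genes were named after their values were seen. cdc-25.3, a CDC25-type phosphatase of the cell cycle, read 72.4, 75.9, 51.0 and 45.8 CPM at the low end and 33.1, 30.1, 19.9 and 29.4 CPM at the high end, a slope of -0.56 ± 0.0695 (SE, adjusted p = 3.35e-06). nos-2, a Nanos-type regulator of germ cells, had a slope of -0.42 ± 0.103 (SE, adjusted p = 0.00237).

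The oocyte list did not track the 2 lowest-scoring libraries. Its mean log2(CPM + 1) was 4.14 in WT replicate 4, 4.70 in WT replicate 5, 4.89 in edc-3 replicate 5 and 4.98 in edc-4 replicate 2. The other 12 libraries held 5.11 to 5.75, the double mutant's replicate 4 (5.36) and edc-4 replicate 4 (5.32) sitting in their midst and edc-3 replicate 3 (5.75), of middle score, at the top. Early zygotic genes, by contrast, were highest in those 2 libraries, at 4.21 and 4.17, and lowest in WT replicate 4, at 3.28. The 14 mitochondrial chromosome genes had their highest means in WT replicate 4 (8.54), WT replicate 5 (8.35) and edc-3 replicate 5 (8.27), which are the libraries with the lowest oocyte means; edc-4 replicate 2, the fourth lowest, was at 7.70. The mitochondrial share of all counts was 7.55%, 6.45% and 6.87% in those 3 and 4.17 to 6.25% elsewhere. Its part in the maternal result was not tested.

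**Figure D5:**
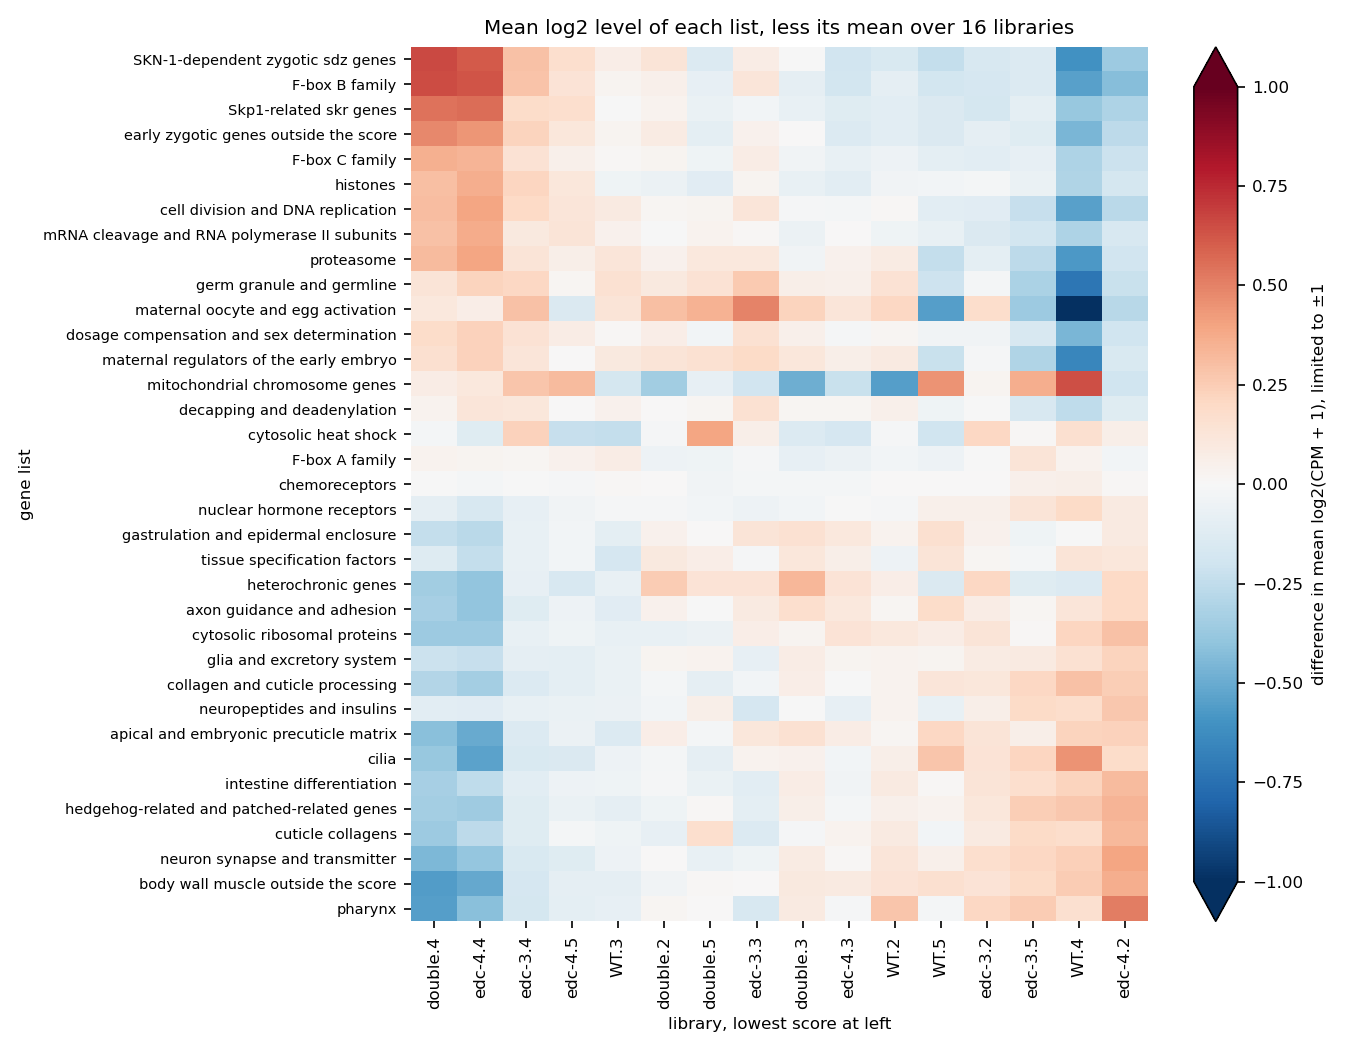
Mean log2(CPM + 1) of each list in each library less the list's mean over 16 libraries (colour, limited to ±1), libraries ordered by score and lists by median slope. Most lists change from left to right, while the oocyte list is lowest in WT replicate 4 at 4.14 and not highest in the 2 lowest-scoring libraries.

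Within genotypes, the median slope of the oocyte list was -1.34 for WT, -0.54 for edc-3, -0.11 for edc-4 and 0.09 for the double mutant. Proteasome subunits gave -0.71, -0.34, -0.21 and -0.18, germ granule genes -0.84, -0.42, -0.18 and -0.11, and division genes -0.57, -0.40, -0.26 and -0.17, in the same order. Early zygotic genes gave -0.53, -0.36, -0.30 and -0.33, and muscle genes 0.44, 0.35, 0.40 and 0.35. The order by genotype rested on the libraries numbered 4, which lie at opposite ends in WT and the mutants. Without them the oocyte list had -0.58 for WT, -1.32 for edc-3, -0.13 for edc-4 and -0.26 for the double mutant, and the proteasome -0.35, -0.63, -0.21 and -0.26. Scores also spanned unequal ranges, 0.970 for WT, 1.02 for edc-3, 2.401 for edc-4 and 1.93 for the double mutant.

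Whether a gene's slope differed among genotypes was tested jointly for the 3 mutants. At an adjusted p of 0.05, 2 genes passed (0.0119% of those tested), against 907 at an unadjusted p of 0.05. Unadjusted, 16 of the 38 oocyte genes, 19 of the 55 maternal regulators and 13 of the 36 germ granule genes were under 0.05, and 3 of the 66 early zygotic and 3 of the 56 muscle genes; none passed after adjustment. The 2 called genes, F15D4.5 (II, 13245376 to 13247774) and F23H12.5 (V, 12358647 to 12363681), both had an adjusted p of 0.0138. F15D4.5 read 12.1, 101, 7.75 and 8.23 CPM in WT replicates 2 to 5, and 33.4 to 48.9 CPM in edc-3, 39.1 to 52.1 CPM in edc-4 and 22.5 to 35.6 CPM in double mutant embryos. F23H12.5 read 10.8, 49.8, 11.9 and 14.9 CPM in WT and 36.6 to 68.7 CPM in the mutants. In both genes WT replicate 3 stood apart from the other WT libraries, and without that library 0 genes passed in edgeR. At an unadjusted p of 0.05 there were then 2798 genes, more than the 907 with all libraries.

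Adding the score to the model changed how many genes passed between the mutants and WT. Mean scores differed by genotype, from 6.70 in WT to 5.93 in the double mutant, and whether genotype itself moved the score was not tested. No WT library scored below 6.15, so equal score with the libraries at 4.62 and 4.80 rests on the fitted common slope. With the score in the model, edc-3 against WT had 41 genes past an adjusted p of 0.05 (0.243%), 27 higher and 14 lower, and with genotype alone 24 (0.142%), 16 higher and 8 lower. For edc-4 the counts were 46 (0.273%), 31 higher and 15 lower, and 24 without the score (0.142%), 12 higher and 12 lower. For the double mutant they were 89 (0.528%), 54 higher and 35 lower, and 35 without the score (0.207%), 20 higher and 15 lower. Each gene called without the score was also called with it, so the score added 17, 22 and 54 genes. Without the 2 lowest-scoring libraries, which belong to edc-4 and the double mutant, 34, 40 and 63 genes passed with the score. The double mutant count was the least stable: it was 52 without its own replicate 2, 55 without its replicate 3 and 135.0 without edc-3 replicate 5.

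The edc-3 transcript itself was among the genes that passed only with the score. It fell along the score with a slope of -0.22 ± 0.0369 (SE, adjusted p = 8.53e-05), in WT from 97.8 CPM in replicate 3 to 70.8 CPM in replicate 4, the lowest and highest scores of that genotype. edc-3 (I, 8602125 to 8605162) read 90.4, 97.8, 70.8 and 82.4 CPM in WT replicates 2 to 5 and 57.4, 64.4, 69.3 and 58.4 CPM in the edc-3 strain, every edc-3 library lying below every WT library. At equal score the log2 difference was -0.50 ± 0.069 (SE, adjusted p = 0.000934), and with genotype alone it was -0.45 with an adjusted p of 0.676. The double mutant read 69.4, 65.0, 82.5 and 74.3 CPM, with a log2 difference of -0.39 ± 0.0736 (SE, adjusted p = 0.0142) at equal score and -0.23 (adjusted p = 0.471) without. The edc-4 strain, with 78.6, 87.9, 116 and 87.3 CPM, had a log2 difference of -0.01 (adjusted p = 0.994). The edc-3 difference kept its call in all 25 alternatives that include a score, between -0.47 and -0.57.

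The edc-4 transcript did not need the score. It read 183, 167, 139 and 183 CPM in WT, 146.53 to 198 CPM in edc-3, 29.4 to 35.3 CPM in edc-4 and 20.4 to 31.0 CPM in the double mutant. Log2 differences from WT were -2.37 for edc-4 and -2.65 for the double mutant with the score, and -2.40 and -2.69 without. Its slope on the score was 0.05 (adjusted p = 0.536).

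The other genes that passed only with the score ranged from steep slopes of their own to slopes near 0. ugt-64, a UDP-glucuronosyltransferase, has a slope of -0.41 and read 19.5, 24.0, 15.3 and 18.3 CPM in WT and 12.02, 12.1, 19.9 and 11.4 CPM in the double mutant, the 19.9 CPM being its lowest-scoring library. At equal score it was lower in the double mutant by a log2 difference of -0.81 ± 0.0954 (SE, adjusted p = 0.000137), against -0.48 (adjusted p = 0.420) without the score. mdl-1, a Mad-like transcription factor (slope 0.57), read 38.4, 35.6, 17.9 and 50.6 CPM in the double mutant against 32.7, 19.4, 28.0 and 22.5 CPM in WT, and was higher at equal score by 0.86 ± 0.141 (SE, adjusted p = 0.00443), against 0.48 (adjusted p = 0.479) without it. ZC168.2 (slope 0.59) went the same way, by 0.94 with the score and 0.54 without. ugt-64, mdl-1 and ZC168.2 kept their calls in all 25 alternatives with a score. Other calls were less stable. rskn-1, higher in the double mutant by 0.81, had a slope of -0.0043 (adjusted p = 0.970) and kept its call in 14 of 25. The pseudogenes Y46G5A.43 and Y46G5A.6, lower in the double mutant by -1.21 and -1.10 with slopes of -0.05 each, kept theirs in 10 and 9. In the single mutants, gst-16 (edc-3) kept its call in 9, K02F3.12 (edc-4, slope -0.04) in 7 and zig-10 (edc-3) in 6 of the 25.

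F07H5.10 (slope -0.43) was lower in all 3 mutants at equal score, by log2 differences of -1.30 (edc-3), -1.16 (edc-4) and -1.17 (double mutant), and passed in none without the score. The comparisons share the WT libraries, which read 37.3, 40.2, 18.4 and 23.3 CPM, against 10.02 to 16.3 CPM in edc-3, 10.8 to 22.5 CPM in edc-4 and 13.9 to 20.4 CPM in the double mutant. F59C12.4 was lower in both strains with edc-4(qe49), by -0.77 and -0.80. Y74C10AR.2 was higher in all 3 mutants, by 1.13, 1.25 and 1.17, and lost its call in 3 to 8 of the 25 alternatives. ppw-2, an Argonaute, was higher in edc-3, by 0.87 ± 0.124 (SE, adjusted p = 0.00137), with 20.4 to 31.0 CPM against 12.5 to 16.4 CPM in WT; without the score its adjusted p was 0.0510. F58D5.5, F58D5.11 and F58D5.13, higher in edc-4 by 1.03 to 1.13, overlap on the same strand and may share reads.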

How the data were processed

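The authors deposited raw counts of reads per gene, a column for each library, made with Trimmomatic, STAR and HTSeq on WBcel235, per the submitters' processing notes; their versions and strand setting were not stated there. Libraries were grouped by the genotype in their labels. Symbols and positions came from the Ensembl release 115 annotation (43623 of 46726 identifiers had a current symbol). Counts were filtered with edgeR 4.0.16 in R 4.3.3 (filterByExpr, minimum count 10, minimum total 15, 16880 genes left), scaled with TMM factors and fitted with the quasi-likelihood test on genotype and score, on genotype alone, and with slopes by genotype. The 9 score genes stayed out of all counts of calls. DESeq2 1.42.0 and other filters, scalings, scores and left-out libraries were alternatives. The slope test was tried on simulated counts and recovered most of the largest planted slopes. There, few genes had slopes, genes were independent and the score was free of error. In the data most genes were called and the score came from the same counts, so performance here was not shown.

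The members, gene lists and tests were chosen with earlier results of these data known, and 8 lists were added after values were seen. Genes were named by rule: the score genes, edc-3 and edc-4, the 12 steepest slopes each way (at least 5 CPM, same sign in 4 genotypes), the 5 closest correlations each way, up to 4 steepest called members per list, up to 5 interaction calls, and up to 5 rises and 5 falls per mutant called only with the score; exceptions are marked. Libraries total 34.1 to 52.9 M counts. How counting error compares with the spread between replicates was not computed, and it weighs most on scarce genes. The median level was 1.70 CPM for the collagens, 1.38 CPM for neuropeptides and insulins, 1.23 CPM for the F-box A family and 0.33 CPM for the chemoreceptors.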

Additional observations from a re-analysis of the deposited data

Results flagged for a closer look

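In a check of 76 groups of 4 libraries, 5 held a library far from the other 3, by a gap past Dixon's 95% critical value for its share of the group's range; chance gives about 1 in 20. On the log2 scale these shares were 0.927 for end-3 in WT and 0.869 for myo-3 in WT, both at replicate 3, 0.835 for F15D4.5 in WT, also at replicate 3, and 0.879 for end-1 and 0.901 for lev-11 in the double mutant, at replicate 4. Slopes on the score differed among genotypes for F15D4.5 and F23H12.5 (adjusted p = 0.0138 each in edgeR's joint test), with WT replicate 3 high among WT libraries in both genes.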

How the results depend on the processing

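The ends of the score kept their 8 libraries with plain CPM or a pseudocount of 5, and 7 of 8 with a pseudocount of 0.1, with muscle genes alone or with early genes alone. The 9219 calls became 3427 without the libraries numbered 4, 6490 without the 2 lowest-scoring ones and 7364 to 9323 without any single library; 178 named genes outside the score had a called slope, of which 43 lost it without the libraries numbered 4. The histone his-15 turned from -0.76 to 0.067 there; the cause was not tested. The 2 interaction calls became 520 without the filter on low counts, 9 in DESeq2, 1 with muscle genes alone, 0 with early genes alone, 0 without the libraries numbered 4 (408 at an unadjusted p of 0.05), 0 without the 2 lowest (196 unadjusted) and 0 to 19 without any single library (361 to 2798 unadjusted). With the score, edc-3 calls became 88 without the filter, 83 in DESeq2 and 22 without the libraries numbered 4; edc-4 calls 109 in DESeq2, 23 without those libraries and 28 to 53 without any single library; double mutant calls 161 without the filter, 275 in DESeq2, 47 without those libraries and 52 to 135.0 without any single library. Without the score the counts were 24, 24 and 35. The median slope of all genes was 0.053 in edgeR with TMM factors, 0.064 without them and 0.028 in DESeq2. DESeq2 called 4302 genes higher and 4863 lower, against 4724 and 4495 in edgeR.

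The replicate numbers share no stated batch and did not pair the samples throughout. Correlations of same-numbered deviations from the group means were -0.625 to 0.345 between WT and a mutant, and among the mutants 0.408 to 0.659 for number 2, 0.708 to 0.869 for number 4 and -0.159 to 0.437 for numbers 3 and 5. With a replicate block the interaction calls were 15, the edc-3 calls 76, the edc-4 calls 62 and the double mutant calls 144; slope calls were 9123, including 86.0% of those without the block. With it, the lower calls of the oocyte genes rose from 10 to 28, while those of all genes were 4495 in both fits.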

Other observations

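Noncoding genes were called on the score in smaller shares than the 28.0% higher and 26.6% lower of all genes; the differences in share were not tested. Of 945 tested loci annotated as ncRNA, 152 passed higher (16.1%) and 31 lower (3.28%) at higher score, and of 98 lincRNAs, 18 passed higher (18.4%) and 10 lower (10.2%). Pseudogenes had 67 of 579 higher (11.6%) and 118 lower (20.4%). Of 48 small nuclear RNA genes, 0 passed higher and 9 lower (18.8%), and snoRNA genes had 22 of 205 higher (10.7%) and 24 lower (11.7%). Protein-coding genes had 4349 of 14504 higher and 4276 lower. Short RNAs are poorly captured by libraries of this kind, and many of these loci lie inside other genes, whose reads they may share.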
